A study of Mus musculus with 10 samples.

Results

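The 8 genes described here are proneural and neuronal transcription factor genes of the cerebral cortex, chosen by symbol from the 55573 genes of the deposited count table. Of these, 5 are known from progenitors and newborn neurons and are called early members (Neurog1, Neurog2, Eomes, Neurod1 and Nhlh1), and 3 are known to stay on in postmitotic projection neurons and are called late members (Neurod2, Neurod6 and Bhlhe22). EYFP-positive cells were sorted from mouse cortex on postnatal day 3, and their polyA RNA was sequenced with a kit that keeps the strand. The 5 Cdk7 KO libraries came from pups of genotype NexCre/+;Cdk7lox/lox, R26EYFP/+, and the 5 Ctrl libraries from NexCre/+;Cdk7+/+, R26EYFP/+ pups, with 1 mouse per library. All 10 libraries thus carry NexCre, a Cre recombinase placed in the Neurod6 locus (also called Nex), on 1 allele, together with 1 allele of a Cre-dependent yellow fluorescent reporter. Neurod6 therefore had 1 altered copy in both genotypes, and counts for whole genes do not show which allele a read came from. Cdk7 encodes a kinase that activates other cyclin-dependent kinases and acts in transcription as a subunit of TFIIH. Its deletion was directed to cells in which the Neurod6 locus had been active.

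Basic helix-loop-helix (bHLH) proteins bind the E-box, a short motif in DNA, as dimers with a widely expressed E protein. In the developing dorsal forebrain they act in sequence: the neurogenins commit progenitors to a glutamatergic fate, Eomes (also called Tbr2, a T-box factor and not a bHLH protein) marks intermediate progenitors, Neurod1 and Nhlh1 mark newborn neurons, and Neurod2, Neurod6 and Bhlhe22 accompany axon growth and circuit assembly of projection neurons. Notch signalling opposes the early steps through HES and HEY repressors, and ID proteins oppose them by holding E proteins away from DNA.

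The members share a compact gene structure. In GENCODE M21 (GRCm38), the coding sequence lies in 1 exon in each member except Eomes, which has 6 coding exons. Neurod6 spans chromosome 6 from 55677822 to 55681263 on the minus strand, Neurod2 chromosome 11 from 98325415 to 98329648 (minus), Bhlhe22 chromosome 3 from 18054174 to 18057517 (plus) and Neurod1 chromosome 2 from 79452521 to 79456751 (minus). Neurog2 lies on chromosome 3 from 127633135 to 127635631 (plus), Neurog1 on chromosome 13 from 56250478 to 56252163 (minus), Nhlh1 on chromosome 1 from 172052292 to 172057573 (minus) and Eomes on chromosome 9 from 118478212 to 118486132 (plus). The longest exact run shared by transcripts of any pair of members was 26 bases, between Neurog1 and Neurog2, followed by 25 bases between Neurod1 and Neurod2. Eomes is overlapped on the other strand by Gm33460, with 47 counts over all libraries against 6867 for Eomes. Neurod1 is overlapped by Cerkl on its own strand (97 counts) and Gm26755 on the other (12 counts), against 8551 for Neurod1.

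Upstream sequence from RefSeq (GRCm38.p6) was matched for 7 of the 8 members, all but Bhlhe22. The windows below cover the 240 bases from 250 to 11 bases before the RefSeq start, written 5′ to 3′ on the gene's strand, with every E-box (CANNTG, a pattern found at the same places on both strands) in capitals. They are shown because the proteins of this family bind E-boxes. The 4 printed windows are those with the most E-boxes (Neurod2 and Neurod6) and a pair with 0 (Neurog2 and Eomes), and they do not separate early from late members, since Neurod1 and Nhlh1 hold E-boxes too.
Neurod6: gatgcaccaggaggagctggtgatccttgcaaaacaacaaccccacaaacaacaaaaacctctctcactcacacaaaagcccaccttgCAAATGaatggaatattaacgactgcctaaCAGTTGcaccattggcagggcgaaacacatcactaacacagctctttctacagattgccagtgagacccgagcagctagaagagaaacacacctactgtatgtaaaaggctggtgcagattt
Neurod2: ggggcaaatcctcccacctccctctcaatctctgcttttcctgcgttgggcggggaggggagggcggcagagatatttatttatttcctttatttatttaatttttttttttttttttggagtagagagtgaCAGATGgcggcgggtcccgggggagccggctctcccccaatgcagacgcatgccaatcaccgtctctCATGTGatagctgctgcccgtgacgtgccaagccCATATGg
Neurog2: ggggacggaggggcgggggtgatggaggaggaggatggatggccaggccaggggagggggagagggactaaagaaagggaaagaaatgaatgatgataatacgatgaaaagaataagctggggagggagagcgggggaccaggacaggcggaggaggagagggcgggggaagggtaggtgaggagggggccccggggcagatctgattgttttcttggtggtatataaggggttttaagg
Eomes: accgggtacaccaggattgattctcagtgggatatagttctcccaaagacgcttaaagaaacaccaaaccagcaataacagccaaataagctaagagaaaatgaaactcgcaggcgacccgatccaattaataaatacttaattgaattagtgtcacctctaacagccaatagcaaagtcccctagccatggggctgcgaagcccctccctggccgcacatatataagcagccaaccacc
The Neurod6 window (chr6:55681274-55681513, minus strand) held 2 E-boxes, with CAAATG starting 162 bases before the gene and CAGTTG 132 bases before it. The Neurod2 window (chr11:98329656-98329895, minus strand) held 3, with CAGATG at 118 bases, CATGTG at 51 bases and CATATG at 17 bases. The windows of Neurog2 (chr3:127632886-127633125, plus strand) and Eomes (chr9:118477939-118478178, plus strand) held 0, as did that of Neurog1, and those of Neurod1 and Nhlh1 held 1 each. Of all 32851 RefSeq windows of the same length, 65% held at least 1 E-box, 30.3% at least 2 and 11.3% at least 3. CAGATG or its reverse complement CATCTG, the form often described for neurogenins and NeuroD factors, was in the Neurod2 and Nhlh1 windows and in 14.1% of all windows. A match describes letters in this window and not a bound site.

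Library totals lay between 23497621 and 31233466 counts. Cdk7 averaged 5.16 ± 1.30 counts scaled by the library's total (CPM) in Cdk7 KO and 15.7 ± 4.00 CPM in Ctrl (SD, n = 5 each), without overlap (two-sided exact permutation p = 0.0079, the smallest that 252 assignments of the libraries allow; edgeR log2 fold change -1.54, adjusted p = 0.161). Genes of projection neurons were present in every library: the 8 markers summed to between 1097.3 and 1399.5 CPM in Cdk7 KO and between 933.6 and 1405.1 CPM in Ctrl. Markers of other cell types were also present in the libraries, no marker list was at 0, and every tested one of these markers had a negative fold change. Of these lists the 7 Cajal-Retzius markers had the highest sums, between 706 and 2400.9 CPM in Cdk7 KO and between 1351 and 3562.6 CPM in Ctrl. The 10 radial glia markers summed to between 215 and 838 CPM in Cdk7 KO against between 778 and 1309.4 CPM in Ctrl, and the 7 endothelial and pericyte markers to between 45.5 and 252 CPM in Cdk7 KO against between 179.9 and 1125 CPM in Ctrl. Replicate numbers 1 to 3 had reads of the Y-linked gene Ddx3y at 45.3 CPM or more and numbers 4 to 6 had Xist at 252.9 CPM or more, so that sex and the set of replicate numbers cannot be told apart. Across all 15578 genes tested, edgeR's quasi-likelihood test called 0% at an adjusted p under 0.05. At an unadjusted p under 0.05 it gave 763 genes higher and 1630 lower in Cdk7 KO. DESeq2 called 42 genes higher (0.258% of the 16263 with an adjusted p) and 536 lower (3.30%), with 0 members among them.

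The members spanned a very wide range of levels, with the late genes far above the early ones. Levels of different genes were compared as CPM per kilobase of exon (RPKM). Neurod2 was the most abundant member, at 228 ± 33.0 RPKM in Cdk7 KO and 189.97 ± 32.1 RPKM in Ctrl (SD, n = 5 each, here and for the levels that follow). Bhlhe22 was next at 181 ± 37.7 RPKM in Cdk7 KO and 149 ± 27.2 RPKM in Ctrl. Neurod6 stood at 107 ± 14.2 RPKM in Cdk7 KO and 88.1 ± 12.1 RPKM in Ctrl. Among the early members Neurod1 led with 13.5 ± 4.91 RPKM in Cdk7 KO and 10.6 ± 3.44 RPKM in Ctrl. Eomes followed at 6.58 ± 2.29 RPKM in Cdk7 KO and 5.97 ± 2.54 RPKM in Ctrl. Neurog2 was at 4.28 ± 1.25 RPKM in Cdk7 KO and 4.10 ± 1.02 RPKM in Ctrl. Nhlh1 was barely present, at 0.562 ± 0.199 RPKM in Cdk7 KO and 0.497 ± 0.345 RPKM in Ctrl. The order was stable within libraries: Neurod2 was above Bhlhe22, Bhlhe22 above Neurod6, Neurod6 above Neurod1 and Neurod1 above Eomes in 10 of 10 libraries, and Eomes above Neurog2 in 9 of 10. Within each genotype the ranges of Neurod2 and Bhlhe22 overlapped, as did those of Neurod1 and Eomes and those of Eomes and Neurog2, whereas Bhlhe22, Neurod6 and Neurod1 stood apart from one another.

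Neurog1, the neurogenin partner of Neurog2 in cortical progenitors, was not detectable in most libraries. It had 5 counts in Cdk7 KO replicate 1 and 0 in the other 4 Cdk7 KO libraries, and likewise 5 counts in Ctrl replicate 1 and 0 in the other 4 Ctrl libraries. A count of 0 allows up to 3 counts, which is between 0.0961 and 0.126 CPM at these depths and covers counting error only. It did not pass the filter on low counts, so 7 of the 8 members were tested.

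**Figure D1:**
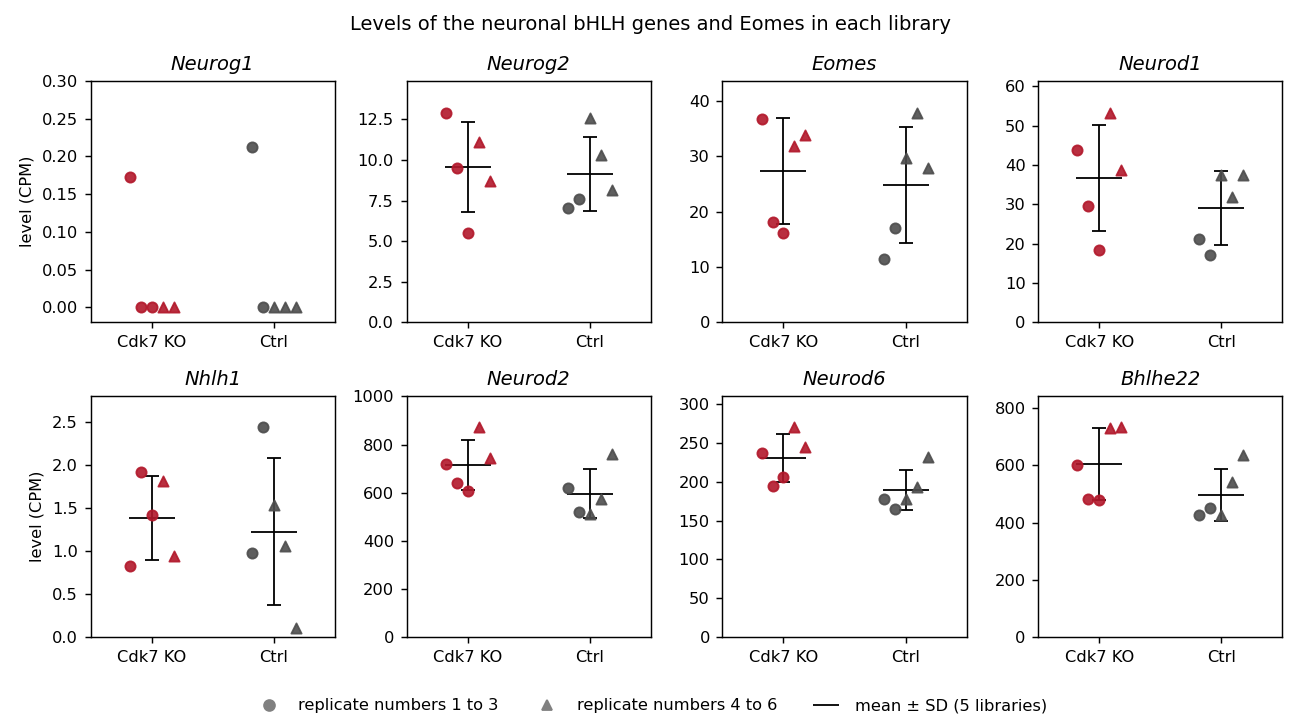
Level of each member in CPM (vertical axes, linear, from about 0) in the 5 Cdk7 KO (left, red) and 5 Ctrl (right, grey) libraries; circles are replicate numbers 1 to 3, triangles numbers 4 to 6, and bars the mean ± SD, omitted for Neurog1. Neurod6 lies between 195 and 269.95 CPM in Cdk7 KO and between 165 and 232 CPM in Ctrl, while the early genes overlap widely.

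In Cdk7 KO the 3 late members had fitted levels, after TMM scaling, of 1.25 to 1.26 times those in Ctrl, and none of them passed the correction over all genes. Fold changes from here on are on the log2 scale, Cdk7 KO over Ctrl. Neurod6, a NeuroD-family factor of young projection neurons and the locus of the driver, had 237, 195, 205, 269.95 and 245 CPM in Cdk7 KO replicates 1 to 5, against 178, 165, 178, 193 and 232 CPM in Ctrl replicates 1, 3, 4, 5 and 6. Of the Cdk7 KO libraries 3 lay above every Ctrl library, and of the Ctrl libraries 4 lay below every Cdk7 KO library, with Ctrl replicate 6 alone reaching into the Cdk7 KO range. Its fold change was 0.34 (SE 0.12) with a 95% interval of 0.08 to 0.60 (edgeR adjusted p = 0.211).

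Neurod2, a related factor that acts in cortical and hippocampal wiring, had 719, 639, 607, 872 and 746 CPM in Cdk7 KO and 619.9, 518, 513.5, 573 and 759.6 CPM in Ctrl. Here 1 Cdk7 KO library, replicate 4, exceeded all Ctrl libraries, and 3 Ctrl libraries lay below all Cdk7 KO ones. The fold change of Neurod2 was 0.32 (SE 0.14) with a 95% interval of 0.02 to 0.61 (edgeR adjusted p = 0.291). Bhlhe22, a repressor of the Olig-related subfamily that works with Prdm8 in projection neurons, had 601, 480.3, 477, 729.5 and 732 CPM in Cdk7 KO and 426, 452, 427, 543 and 635 CPM in Ctrl. Replicates 4 and 5 of Cdk7 KO stood above every Ctrl library and 3 Ctrl libraries below every Cdk7 KO library. Bhlhe22 had a fold change of 0.34 (SE 0.16) with a 95% interval of -0.01 to 0.69 (edgeR adjusted p = 0.344). Groups without overlap made up 0.610% of all tested genes in the higher direction and 2.41% in the lower one, and 0 members were among them.

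With the set of replicate numbers (1 to 3 against 4 to 6) as a factor in the fit, Neurod6 passed the correction. It rose by a log2 fold change of 0.39 (SE 0.09) in that fit (edgeR adjusted p = 0.0368, with a range of 0.0368 to 0.497 over 21 alternatives), which called 0.295% of all genes higher and 4.40% lower. Bhlhe22 (0.40, edgeR adjusted p = 0.0686) and Neurod2 (0.35, adjusted p = 0.125) did not pass in that fit. At an unadjusted p under 0.05 it put 4 of 7 tested members higher (Neurod6, Bhlhe22, Neurod2 and Neurod1), against 6.98% of all genes. With replicate numbers 1 to 3 alone the fold changes of Neurod6, Neurod2 and Bhlhe22 were 0.32, 0.22 and 0.26, and with numbers 4 to 6 alone 0.45, 0.49 and 0.54. Scaled by library totals alone they were 0.28, 0.26 and 0.28, as that scaling shifts all genes by a median of -0.05.

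The late members had similar mean proportions to each other in both genotypes. The ratio of Neurod2 to Neurod6 in RPKM was 2.13 ± 0.096 in Cdk7 KO and 2.15 ± 0.163 in Ctrl (SD, n = 5 each), with all 10 libraries between 1.97 and 2.38. The ratio of Bhlhe22 to Neurod6 was 1.67 ± 0.164 in Cdk7 KO and 1.68 ± 0.130 in Ctrl, with all 10 libraries between 1.49 and 1.92. Both mean ratios thus differed between genotypes by less than their spread. The coefficient of variation between libraries was 4.51% in Cdk7 KO and 7.57% in Ctrl for the first ratio. For the second it was 9.79% in Cdk7 KO and 7.76% in Ctrl. Neurod6 itself varied more (13.2% in Cdk7 KO and 13.7% in Ctrl).

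**Figure D2:**
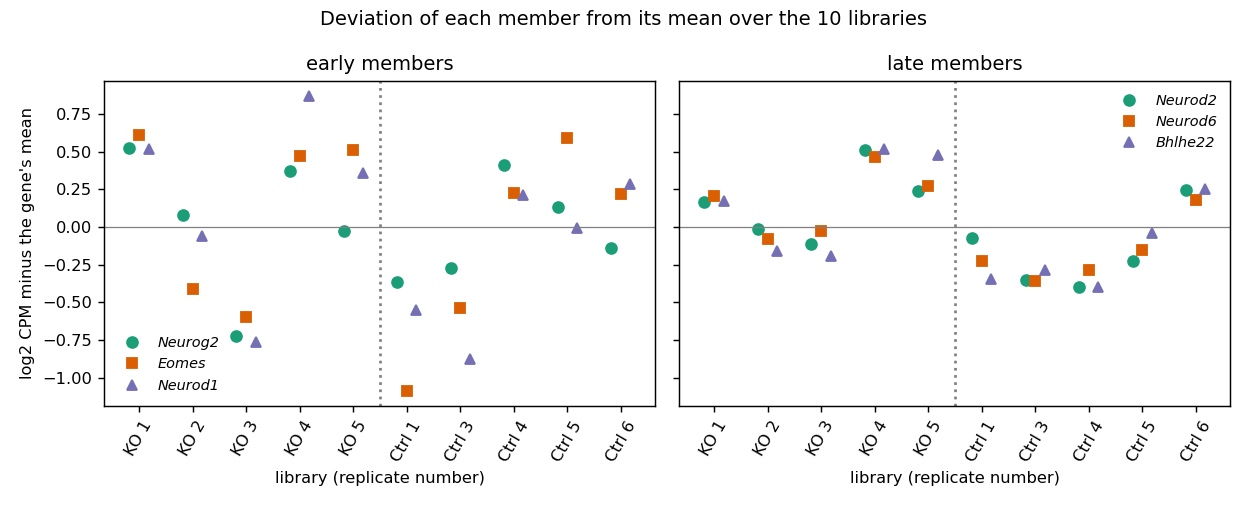
Deviation of log2 CPM (TMM-scaled) of each gene from its mean over the 10 libraries, for Neurog2, Eomes and Neurod1 (left panel) and Neurod2, Neurod6 and Bhlhe22 (right panel), with Cdk7 KO libraries left of the dotted line and Ctrl libraries right of it. In the right panel the symbols of the late genes lie close together. In the left panel those of the early genes lie farther apart in most libraries, though not in Cdk7 KO replicate 3, with Eomes lowest in Ctrl replicate 1 (11.4 CPM).

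In each genotype the library with the highest late members had the lowest radial glia markers. Within Cdk7 KO, replicate 4 had the highest sum of the 3 late genes (1871.2 CPM) and the lowest radial glia sum (215 CPM). Within Ctrl, replicate 6 had the highest late sum (1627.1 CPM) and the lowest radial glia sum (778 CPM). Ctrl replicate 6 was also lowest in Ctrl for proliferation, astrocyte and Cajal-Retzius markers. It was not lowest for oligodendrocyte lineage, microglia, endothelial and pericyte, interneuron or dentate granule markers. Cdk7 KO replicate 4 was lowest in Cdk7 KO for all of these lists except the dentate granule markers. Nor did the other libraries all follow the order of late and radial glia sums. Cdk7 KO replicate 1 had the highest radial glia sum of its genotype (838 CPM). Its late sum (1557.2 CPM) was nonetheless above those of replicates 2 and 3 (1313.7 and 1289.6 CPM). Without Cdk7 KO replicate 4 the fold changes of Neurod6, Neurod2 and Bhlhe22 were 0.24, 0.21 and 0.23, and without Ctrl replicate 6 0.43, 0.43 and 0.46. The part of other cells in the difference was not tested. In bulk RNA a change in the number of cells of a type and a change in RNA per cell cannot be told apart. Set against the sum of the 8 projection neuron markers, Neurod6 was at 18.3 ± 1.04% in Cdk7 KO and 16.7 ± 0.676% in Ctrl (SD, n = 5 each), with Cdk7 KO replicate 2 (16.6%) inside the Ctrl range of 15.8% to 17.7%.

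No early member passed the correction over all genes, and Neurog2, Eomes and Neurod1 varied more between libraries than the late ones. Neurod1, which promotes the step from intermediate progenitor to neuron, had 43.8, 29.5, 18.4, 53.4 and 38.7 CPM in Cdk7 KO and 21.2, 17.1, 37.5, 31.8 and 37.4 CPM in Ctrl. Replicates 1, 4 and 5 of Cdk7 KO stood above every Ctrl library and replicate 3 near the lowest Ctrl libraries. The log2 fold change of Neurod1 was 0.41 (SE 0.29) with a 95% interval of -0.22 to 1.03 (edgeR adjusted p = 0.537). It was 0.20 without Cdk7 KO replicate 4 and 0.26 without Ctrl replicate 3, and 0.58 (SE 0.20) with the set as a factor (edgeR adjusted p = 0.132). Eomes had 36.8, 18.1, 16.2, 31.8 and 33.9 CPM in Cdk7 KO and 11.4, 17.0, 29.7, 37.9 and 27.9 CPM in Ctrl. The groups overlapped over nearly their whole range, and the fold change was 0.20 (SE 0.32) with a 95% interval of -0.49 to 0.89 (edgeR adjusted p = 0.812). Single libraries moved it widely, with 0.03 without Ctrl replicate 1 and 0.40 without Ctrl replicate 5, and it was 0.44 (SE 0.24) with the set as a factor (adjusted p = 0.319).

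Neurog2, the proneural factor of cortical progenitors, had 12.9, 9.50, 5.51, 11.1 and 8.68 CPM in Cdk7 KO and 7.06, 7.62, 12.6, 10.3 and 8.14 CPM in Ctrl. Its total was 1227 counts in each genotype. The fold change was 0.12 (SE 0.23) with a 95% interval of -0.38 to 0.63 (edgeR adjusted p = 0.846), and -0.0029 without Cdk7 KO replicate 1. Nhlh1, a bHLH factor of newly born neurons, had between 0.831 and 1.91 CPM in Cdk7 KO and between 0.111 and 2.43 CPM in Ctrl, or 174 counts in all in Cdk7 KO and 170 counts in Ctrl. Its log2 fold change of 0.23 (SE 0.55, 95% interval -0.97 to 1.44, edgeR adjusted p = 0.888) changed sign without Ctrl replicate 6 (-0.058), whose 3 counts were the lowest. The coefficients of variation of Neurog2, Eomes and Neurod1 lay between 25.0% and 42.5% in either genotype, against 13.2% to 20.9% for the late members, while counting error alone would give at most 6.38% for these 6 genes.

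**Figure D3:**
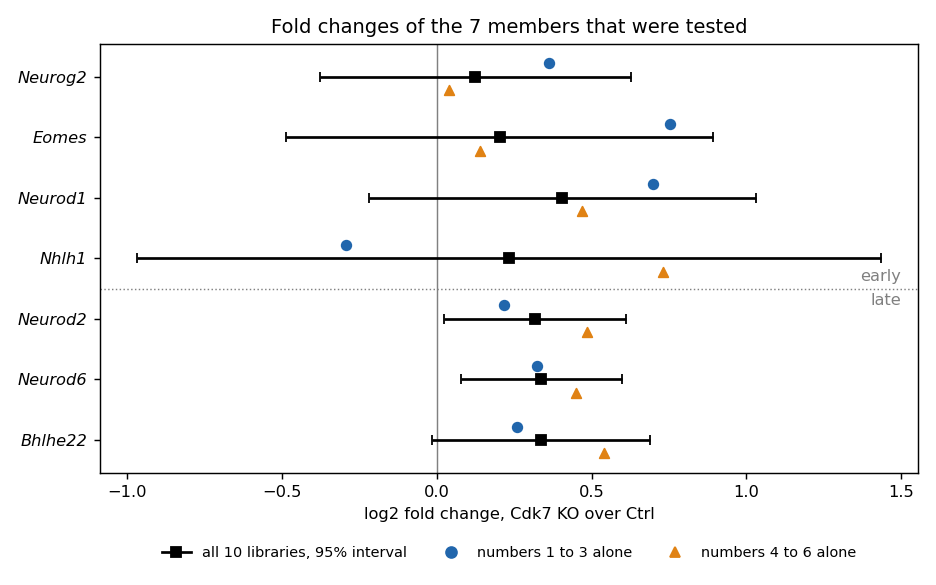
Log2 fold change of Cdk7 KO over Ctrl (horizontal axis) for the 7 tested members, with squares and 95% intervals from all 10 libraries, circles from replicate numbers 1 to 3 alone and triangles from numbers 4 to 6 alone. The intervals of Neurod2 and Neurod6 lie above 0, that of Bhlhe22 reaches -0.01, and those of the early genes span 0 widely.

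Side by side, 4 of 4 tested early members and 3 of 3 late members had a positive log2 fold change, against 52.5% of all tested genes. The median was 0.22 for the early members, 0.34 for the late members and 0.01 over all 15578 genes. At an unadjusted p under 0.05, 2 late members (Neurod6 and Neurod2) and 0 early members were higher, against 4.90% of all genes, and 0 members were lower, against 10.5%. The 5 early genes together took 4.53 ± 0.958% of the summed CPM of the 8 members in Cdk7 KO and 4.78 ± 1.48% in Ctrl (SD, n = 5 each). The early share thus differed by less than the spread between libraries. The order of the medians was reversed with replicate numbers 1 to 3 alone (early 0.53, late 0.26) and without Ctrl replicate 4 (early 0.29, late 0.28).

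Several members had higher levels in one set of replicate numbers, without passing the correction. In the fit with genotype and set, Eomes was at a log2 difference of 0.83 for numbers 4 to 6 over numbers 1 to 3 (edgeR adjusted p = 0.110). Neurod1 was at 0.76 (adjusted p = 0.0994), Bhlhe22 at 0.41 (adjusted p = 0.106) and Neurod6 at 0.28 (adjusted p = 0.150). Thus 4 of 7 members had an unadjusted p under 0.05 in this direction, against 8.51% of all genes, and 0 passed the correction, which 0.0642% of all genes passed as higher and 0.289% as lower. In Ctrl the contrast showed in the single libraries: Eomes had 29.7, 37.9 and 27.9 CPM in replicates 4, 5 and 6 against 11.4 and 17.0 CPM in replicates 1 and 3. In Cdk7 KO, replicate 1 (36.8 CPM) stood with replicates 4 and 5 instead. The fold change of Eomes was 0.75 with numbers 1 to 3 alone and 0.14 with numbers 4 to 6 alone, and the difference between the sets was not called (interaction -0.62, edgeR adjusted p = 0.724). For the other 6 tested members the interaction had adjusted p-values of 0.754 or more, and over all genes 0% were called.

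The bHLH partners and opponents of the members had fold changes of both signs, and edgeR called 0 of them over all genes. Of the 3 E protein genes, which encode the dimer partners, Tcf4 was the most abundant at 1186.3 ± 129 CPM in Cdk7 KO and 1098.4 ± 139 CPM in Ctrl (SD, n = 5 each; log2 fold change 0.17, edgeR adjusted p = 0.469). Tcf12 was at -0.20 (edgeR adjusted p = 0.327) and Tcf3 at -0.07, and the median of the list was -0.07. Of the 4 ID genes, whose products block E proteins, 2 were positive and 2 negative. Id2, the most abundant, was at 291 ± 18.7 CPM in Cdk7 KO and 252 ± 29.2 CPM in Ctrl (0.26, edgeR adjusted p = 0.187), and Id4 at 0.18. Id3 was at 10.1 ± 7.10 CPM in Cdk7 KO and 24.4 ± 7.07 CPM in Ctrl (-1.23, edgeR adjusted p = 0.237), and Id1 at -1.19 (adjusted p = 0.253). With the set as a factor edgeR called Id2 higher (adjusted p = 0.0380) and Id1 and Id3 lower (0.0367 and 0.0214). The same fit called 6 of 7 astrocyte, 6 of 10 radial glia, 6 of 8 proliferation and 6 of 7 endothelial and pericyte markers lower. It called 1 of 8 oligodendrocyte lineage markers lower and 0 of the microglia, interneuron, Cajal-Retzius and dentate granule markers. Over all genes the share called lower was 4.40%. The part of other cells in the values of Id1 and Id3 was not tested.

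Among the HES and HEY genes 7 of 8 were tested, with a median of -0.60, 2 positive and 5 negative. Hes6, an atypical member that promotes neurogenesis and opposes Hes1, had between 85.9 and 91.7 CPM in Cdk7 KO and between 74.7 and 84.5 CPM in Ctrl, without overlap (0.22, SE 0.05, edgeR adjusted p = 0.161). DESeq2 called it higher (adjusted p = 0.0203). Hes5 and Hes1 are effectors of Notch. Hes5 averaged 6.27 ± 3.10 CPM in Cdk7 KO and 14.2 ± 4.96 CPM in Ctrl (SD, n = 5 each; -1.12, edgeR adjusted p = 0.183), and DESeq2 called it lower (adjusted p = 0.0198). Hes1 was at -1.45 (edgeR adjusted p = 0.256) and Heyl, which is also expressed in vessels, at -1.79 (edgeR adjusted p = 0.161, DESeq2 adjusted p = 0.00379). Cell type markers had negative fold changes beside them: all 10 radial glia markers, which include Hes1 and Hes5, were negative with a median of -0.99, and all 7 endothelial and pericyte markers with a median of -1.60. The part of these cells was not tested.

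Intermediate progenitor genes other than the members did not share a direction. Of 12 genes 7 were positive and 5 negative, with a median of 0.04, close to that of all genes. Mfng, a modifier of Notch receptors, was at -0.69 (edgeR adjusted p = 0.218), the antiproliferative gene Btg2 at -0.36, Gadd45g at -0.49 and Tac2, below 1 CPM on average in both genotypes, at 1.19 (adjusted p = 0.321). Proliferation markers, by contrast, were negative in 8 of 8 cases with a median of -1.07. Eomes, Neurog2 and Neurod1 had fold changes of 0.20, 0.12 and 0.41 beside them.

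Of 19 other neural bHLH genes 12 were tested, with 3 positive, 9 negative and a median of -0.54. The oligodendrocyte factors Olig1 and Olig2 had log2 fold changes of -0.79 and -0.88, with edgeR adjusted p-values of 0.316 and 0.290. The oligodendrocyte lineage markers, which include Olig1 and Olig2, summed to between 203 and 565 CPM in Cdk7 KO and between 333 and 935 CPM in Ctrl, with 8 of 8 negative, and their part was not tested. The fold changes of Olig1 and Olig2 with replicate numbers 1 to 3 alone were 0.03 and 0.01, and with numbers 4 to 6 alone -1.30 and -1.31. Bhlhe40, an activity- and clock-related repressor, was at 15.2 ± 4.93 CPM in Cdk7 KO and 25.7 ± 6.32 CPM in Ctrl (SD, n = 5 each; -0.71, edgeR adjusted p = 0.192), and DESeq2 called it lower (adjusted p = 0.0456). Not tested for low counts were Neurod4, Neurog3, Olig3, Atoh1, Atoh7, Ptf1a and Tal2.

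Tbr1, the T-box relative that follows Eomes in the sequence from intermediate progenitor to deep-layer neuron, was at 363 ± 61.1 CPM in Cdk7 KO and 293 ± 57.6 CPM in Ctrl (SD, n = 5 each; 0.37, edgeR adjusted p = 0.277). With the set as a factor edgeR called it higher (adjusted p = 0.0286). The other relative, Tbx21, was below 1 CPM on average in both genotypes (0.52, edgeR adjusted p = 0.609). Of 7 tested genes that have been described as Neurog2 targets, 5 were positive and 2 negative, with a median of 0.20. Besides Hes6 and Tbr1 they included the migration GTPase gene Rnd2 (0.27, edgeR adjusted p = 0.354) and the chemokine receptor gene Cxcr4 (-0.45, edgeR adjusted p = 0.242).

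Of 8 genes described as partners or targets of Neurod2, Neurod6 or Bhlhe22, 7 were positive and 1 negative, with a median of 0.19. Cntn2, an axonal adhesion molecule (TAG-1), had between 2156 and 2560.4 CPM in Cdk7 KO and between 1801.2 and 2087.5 CPM in Ctrl, without overlap (0.31, SE 0.07, edgeR adjusted p = 0.161). DESeq2 (adjusted p = 0.0229) and edgeR with the set as a factor (0.0417) called it higher. Robo1, the Slit receptor, was at 0.32 (edgeR adjusted p = 0.386), Prdm8, the Bhlhe22 partner, at 0.26 (0.436) and Bcl11b, a factor of subcerebral projection neurons, at 0.31 (0.507). The 8 projection neuron markers were likewise all positive, with a median of 0.20.

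**Figure D4:**
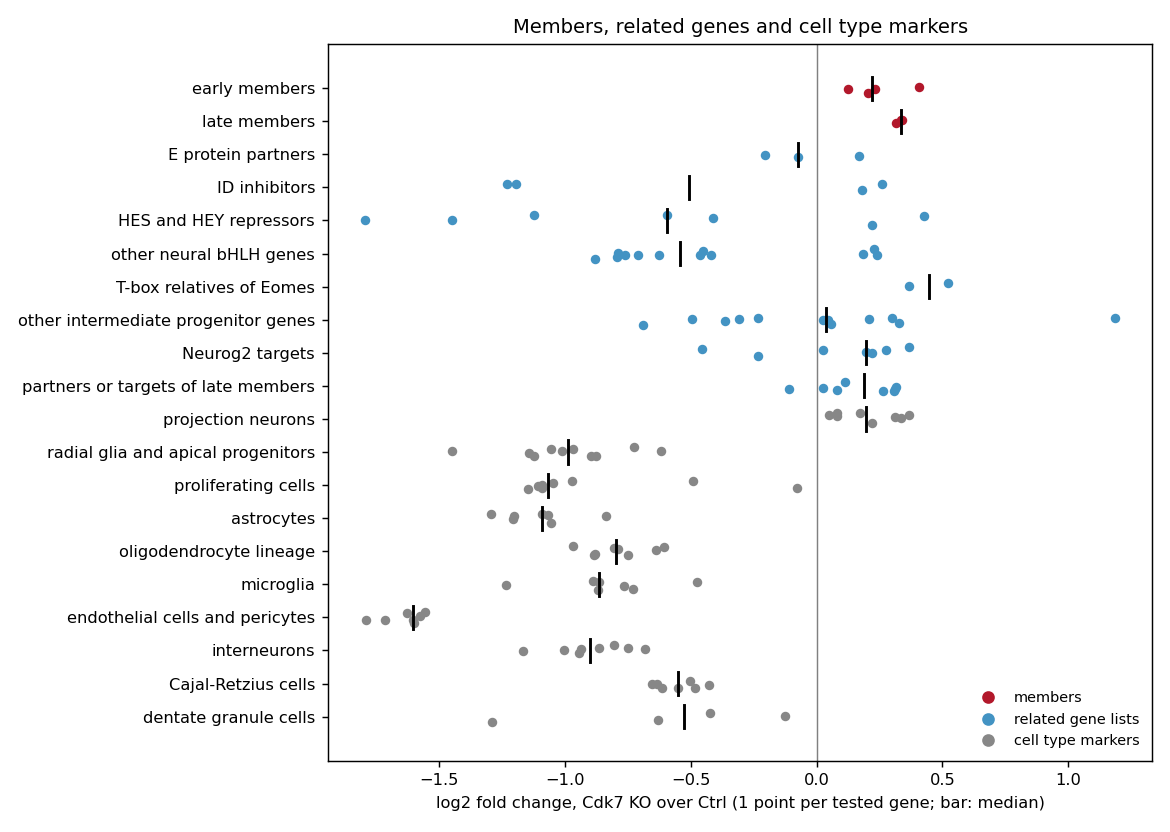
Log2 fold change of Cdk7 KO over Ctrl (horizontal axis) of each tested gene, 1 point per gene, for the members (red), related gene lists (blue) and cell type markers (grey), with a black bar at each list's median; vertical jitter within a row carries no meaning, and some genes stand in more than 1 row. The medians of the late members (0.34) and projection neurons (0.20) lie right of 0, and those of radial glia (-0.99) and proliferating cells (-1.07) left of it.

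The genes around Neurod6 had fold changes of both signs. Of the 13 annotated genes that reach within 500 kb of it, 8 had a count and 6 were tested, 3 positive and 3 negative. The closest, the lincRNA Gm3279, starts 3.31 kb from the Neurod6 start on the opposite strand and was at 8.81 ± 1.33 CPM in Cdk7 KO and 8.42 ± 1.79 CPM in Ctrl (SD, n = 5 each; 0.11, edgeR adjusted p = 0.815). Adcyap1r1, the PACAP receptor gene 229 kb away, was at 170.5 ± 10.5 CPM in Cdk7 KO and 205 ± 16.2 CPM in Ctrl, a log2 fold change of -0.21 (SE 0.06, edgeR adjusted p = 0.179). Pde1c, a phosphodiesterase gene, was at 0.30 (edgeR adjusted p = 0.429), Itprid1 at -0.11 (0.931) and Mindy4 at 0.01 (0.971). The water channel gene Aqp1, below 1 CPM on average in both genotypes, was at -0.31 (SE 0.52, edgeR adjusted p = 0.829).

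**Figure D5:**
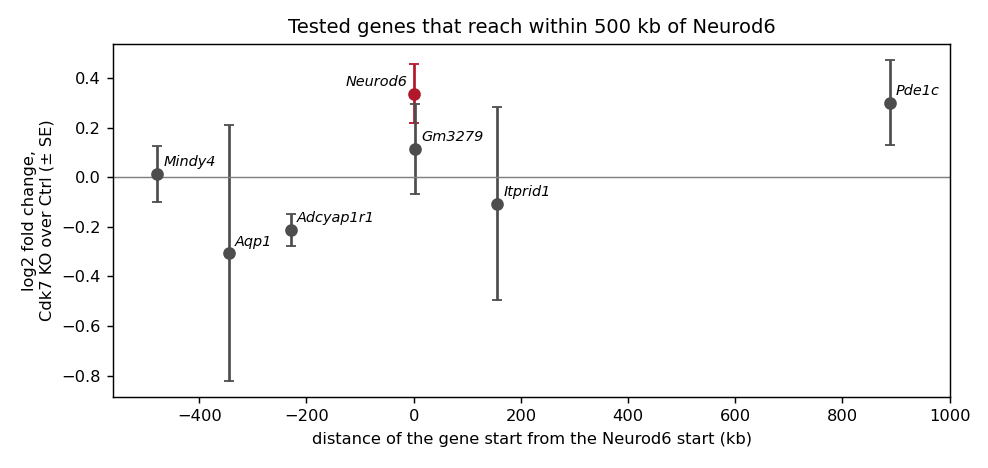
Log2 fold change of Cdk7 KO over Ctrl with its standard error (vertical axis) for Neurod6 (red) and the 6 tested genes around it (grey), by the distance in kb of each gene's start from that of Neurod6 (horizontal axis). Neurod6 (0.34) and Pde1c (0.30) are highest and Aqp1 (-0.31, SE 0.52, below 1 CPM on average) and Adcyap1r1 (-0.21, SE 0.06) lowest.

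The genes whose pattern was most like that of Neurod6 included its relative Neurod2. Likeness was the mean absolute difference in log2 CPM, after centring each gene on its mean over the 10 libraries, among the 11067 genes that averaged 5 CPM or more, and a small value means a like pattern. The nearest were the potassium channel gene Kcna3 (0.0699), Neurod2 (0.0701), the long noncoding RNA Pantr1 (0.0705), the actin-binding gene Enc1 (0.0738) and the TFIID gene Taf3 (0.0740), against a median of 0.241 over all compared genes. Bhlhe22 ranked 61, with 0.103, and the early members Neurog2 (0.307), Neurod1 (0.316) and Eomes (0.389) were farther from Neurod6 than the median gene. For Eomes the nearest were the zinc finger genes Zfp60 (0.122) and 2610008E11Rik (0.142), Scrt2, a neuronal Scratch-family repressor (0.144), Zkscan7 (0.146) and the protocadherin gene Pcdh20 (0.155), against a median of 0.533. Among the members Neurod1 came closest to Eomes, at rank 137 (0.272). These distances describe 10 libraries that share genotype and set differences, and they carry no test. They are not scaled for how much a gene varies between libraries. A gene that varies more than Neurod6, as these early members did, can lie far from it even where both rise and fall alike.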

How the data were processed

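Counts per gene were deposited by the authors as whole numbers, 1 column per library and not normalized. The submitters' processing notes name STAR, Salmon and GRCm38. Which of these made the counts, in which version and with which strand setting, is not given, and 0 columns were left unmatched. Each library is a separate mouse per the series' design, and no library was a copy of another (smallest chi-square per gene 10.54). Of 55573 IDs, 55480 matched GENCODE M21, which gave coordinates and exon lengths.

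The tests ran under R 4.3.3, with edgeR 4.0.16 for the main results (filterByExpr with a minimum count of 10, TMM, glmQLFit and glmQLFTest, genotype alone, Benjamini-Hochberg adjustment over 15578 genes, threshold 0.05). Fold changes are log2 of Cdk7 KO over Ctrl, with standard errors from the F statistic. CPM uses library totals, and the log2 CPM of the patterns a prior count of 2. DESeq2 1.42.0 left 11941 genes with counts without an adjusted p, and these were not counted. Alternatives were DESeq2, limma voom (limma 3.58.1), other scalings, filters and robust estimation, each library left out, the replicate number as a block, and the set of replicate numbers as a factor or alone. Chosen after seeing the data were the interaction with the set and the set's own coefficient. The procedure was also tested on data simulated gene by gene from levels and spreads fitted to these libraries, without set or cell type differences. It recovered 34% of genes simulated with a 1.5-fold change, 52% at 2-fold, 70% at 3-fold and 94% at 4-fold, with 4 false calls. Changes as small as those of the late members were not simulated.

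Named were all members, Cdk7, the tested genes within 500 kb of Neurod6, up to 4 genes per list by edgeR p, and the 5 genes nearest in pattern to Neurod6 and to Eomes. Some genes stand in more than 1 list. The result of 1 gene that this rule names is not reported here. The members and lists were chosen with earlier results of these data known.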

Additional observations from a re-analysis of the deposited data

Results flagged for a closer look

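Neurog1 in Cdk7 KO replicate 1 (0.173 CPM, 5 counts) and in Ctrl replicate 1 (0.213 CPM, 5 counts) stood apart from the other 4 libraries of the same genotype, each of which had 0 counts. Chance sets about 1 in 20 groups of continuous values apart in this way, a rate that does not apply here, since any count above 0 stands apart from 4 libraries at 0. Values of a few counts carry a large counting error.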

How the results depend on the processing

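Neurod6, Neurod2, Bhlhe22, Neurod1 and Eomes kept a positive fold change under each of 21 alternatives, with sizes that depended on single libraries. When a library was left out, Eomes lay between 0.03 (without Ctrl replicate 1) and 0.40 (without Ctrl replicate 5), Neurod1 between 0.20 (without Cdk7 KO replicate 4) and 0.58 (without Cdk7 KO replicate 3), Neurog2 lay between -0.0029 (without Cdk7 KO replicate 1) and 0.27, and Nhlh1 between -0.058 (without Ctrl replicate 6) and 0.65. The sign of Nhlh1 also changed with replicate numbers 1 to 3 alone (-0.29) and with the replicate number as a block (-0.17). The cause was not tested. The median of the late members lay between 0.23 (without Cdk7 KO replicate 4) and 0.49 (numbers 4 to 6 alone), and that of the early members between 0.10 (without Cdk7 KO replicate 4) and 0.53 (numbers 1 to 3 alone). Neurod6 passed the threshold with the set as a factor (0.39, adjusted p = 0.0368). Over all genes the count of calls was 0 in the reported fit and with limma voom, 578 with DESeq2, 1 without a filter, 732 with the set of replicate numbers as a factor, and between 0 and 5 when a library was left out, with 5 without Cdk7 KO replicate 1. With the replicate number as a block edgeR called 5 genes and 0 members. The numbers are not said to pair the samples. The deviations of same-numbered libraries correlated at -0.10, 0.31, 0.14 and 0.17 for numbers 1, 3, 4 and 5. Cdk7 KO libraries of these numbers correlated best with Ctrl numbers 5, 1, 6 and 6. Ctrl libraries of these numbers correlated best with Cdk7 KO numbers 3, 3, 4 and 5. Such correlations cannot decide whether the mice were paired, since a pair may share little beside its genotype difference. Depth limits Nhlh1, at 3 to 76 counts per library, and Neurog1.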
